A study of Rattus norvegicus and Bos taurus with 6 samples.

Results

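The 10 genes Myh6, Myh7, Myh4, Ttn, Ryr1, Ryr2, Tnnt2, Actc1, Neb and Nebl encode parts of the contractile and calcium release machinery of heart and skeletal muscle, and they were followed through 6 fat libraries by single nucleus RNA sequencing (snRNAseq). They were matched by gene symbol among 38697 genes in each rat Parse library, 25629 genes in the rat 10x Genomics library and 36075 genes in the cow library. All 10 were found in the rat files and 9 in the cow file, which lists no gene under the symbol TTN. They were selected on the level of Myh6 in these libraries, above all in taPVAT against BAT and in single nuclei, so their levels are given as a description and no difference was tested.

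Rat tissue came from male SS/HsdMcwiCrl (Dahl SS) rats obtained from Charles River and labelled as normal, with no age, genotype change or treatment in the labels, and was snap frozen. Perivascular adipose tissue of the thoracic aorta (taPVAT), subscapular brown adipose tissue (BAT), mesenteric perivascular adipose tissue (mesPVAT) and retroperitoneal (RP) fat were each run as 1 Parse library, and mesPVAT also as 1 library on the droplet platform of 10x Genomics, in another batch and after another nuclei isolation with sorting of stained nuclei. Subcutaneous white adipose tissue (cow WAT) from the right flank of lactating female Holstein cows was run as 1 Parse library. With 1 library for each condition there were no replicates, so every difference below is between libraries and intervals cover counting error only.

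In striated muscle, myosin heavy chains (Myh6, Myh7 and Myh4) form the thick filament and pull on thin filaments of actin (Actc1), whose access is set by the troponin complex (Tnnt2). Titin (Ttn) is a spring from the Z-disc to the M-band of the sarcomere, nebulin (Neb) runs along the thin filament of skeletal muscle, and nebulette (Nebl) is its smaller cardiac relative at the Z-disc. Calcium for contraction leaves the sarcoplasmic reticulum through ryanodine receptors, mainly Ryr1 in skeletal and Ryr2 in cardiac muscle, and Ryr2 is also found in smooth muscle. In the rat atrium and ventricle Myh6 is the main adult heavy chain, Myh7 marks slow skeletal fibres and the fetal heart, and Myh4 marks the fastest skeletal fibres. Fat is not a striated muscle tissue, although brown fat shares a developmental origin with skeletal muscle.

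Genes of this kind carry short motifs before their start sites, and the 250 bases before the RefSeq start (build GRCr8) are printed for Tnnt2, whose level differed strongly between taPVAT and BAT, and for Myh4, the 1 gene with no unique molecular identifier (UMI, 1 counted transcript) in taPVAT. The Tnnt2 window is chr13:49818873-49819122 and the Myh4 window is chr10:52421898-52422147, both on the plus strand. Capitals mark matches, on either strand, to the MCAT motif CATTCC, to a MEF2 site or to a CArG box, none of which overlap each other here.
Tnnt2: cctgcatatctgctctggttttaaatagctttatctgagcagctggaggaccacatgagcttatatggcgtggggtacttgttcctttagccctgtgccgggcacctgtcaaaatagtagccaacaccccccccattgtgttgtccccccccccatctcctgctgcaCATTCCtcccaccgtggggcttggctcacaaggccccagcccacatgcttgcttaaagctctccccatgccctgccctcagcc
Myh4: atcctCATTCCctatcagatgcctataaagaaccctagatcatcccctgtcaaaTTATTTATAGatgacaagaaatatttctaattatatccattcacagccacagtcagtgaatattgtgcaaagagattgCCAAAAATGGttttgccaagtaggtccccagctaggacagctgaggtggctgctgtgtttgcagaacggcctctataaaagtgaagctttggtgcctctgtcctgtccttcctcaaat
The Tnnt2 window held 1 match, to CATTCC, and the Myh4 window held 1 match to each of the 3 motifs. CATTCC was found before 3 of the 10 genes (Myh6, Myh4 and Tnnt2), a MEF2 site before 2 (Myh4 and Ttn) and a CArG box before 2 (Myh4 and Nebl). Over the 33469 windows of 250 bases in the RefSeq table these motifs were found in 12.1%, 2.96% and 1.497%. The matches describe the letters only, and the 2 printed windows, both with a CATTCC match, belong to 1 gene with 84 UMIs in taPVAT and 1 with 0.

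The libraries held 2708 nuclei (taPVAT), 2699 (BAT), 3028 (mesPVAT, Parse), 2805 (RP fat), 5887 (mesPVAT, 10x) and 2297 (cow WAT), with 845316 UMIs in all in RP fat, the fewest, and 16827260 in cow WAT, the most. Median depth was 1246 UMIs per nucleus in taPVAT and 1706 in BAT, against 346 in the library labelled mesPVAT, 213 in that labelled RP fat, 161 in the 10x library and 3530 in cow WAT. The order of depth of the libraries labelled mesPVAT and RP fat is the opposite of that in the study's text, so each value for the pair is given by its label. No cell barcode was shared between libraries, and doublets were not removed. The labelled tissues were checked against their markers. Summed over 10 adipocyte markers the level was 7463 CPM (UMIs of a gene scaled to a library total of 1000000) in taPVAT and 7472 in BAT. It was 3262 in mesPVAT (Parse), 7917 in the 10x library, 4326 in cow WAT (8 markers in its file) and lowest, at 1308, in RP fat. Over 9 brown adipocyte markers the level was 7108 in taPVAT and 8185 in BAT. It was 803 in mesPVAT (Parse), 1126 in RP fat, 216 in the 10x library and 359 in cow WAT. A list of 10 cardiac muscle markers summed to 50.0 CPM in taPVAT, with Nppa and Nkx2-5 at 0 UMIs, and to 19.2 CPM in BAT, with Nppa and Myl7 at 0. That sum was higher in mesPVAT (Parse), at 109 CPM with all 10 found, and in RP fat, at 175 CPM with Nppa at 0, and it was 15.4 CPM in the 10x library and 29.8 in cow WAT. The skeletal muscle markers summed to 74.1 CPM in taPVAT, 32.8 in BAT, 267 in mesPVAT (Parse), 263 in RP fat, 172 in the 10x library and 61.5 in cow WAT, and their part in the levels below was not tested. No cluster of nuclei in any library could be named cardiac or skeletal muscle. The clusters were made without the 10 genes, and a few nuclei need not form a cluster, so this does not show that such nuclei were absent.

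Some of the genes differed strongly between taPVAT and BAT, led by Myh6, whereas Neb and Nebl were near equal or higher in BAT. Ryr1 and Ryr2 lay between, at 1.54-fold and 1.76-fold higher in taPVAT. Myh4, with 0 UMIs in taPVAT and 5 in BAT, was too low to place. Of the 9 genes with at least 10 UMIs over both libraries, 5 were 2-fold or more higher in taPVAT (Myh6, Myh7, Ttn, Tnnt2 and Actc1), where 8.52% of all 23157 genes with that many UMIs were, and 0 were 2-fold or more lower, against 2.48% of all genes. Their median log2 ratio was 1.67, against 0.12 over all genes. Myh6 was among the values that chose the genes, so this share is not independent of the choice. The limit of 10 UMIs is on the sum of both libraries. A gene of low level, such as Actc1, can thus pass it through the library where it is high.

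**Figure D1:**
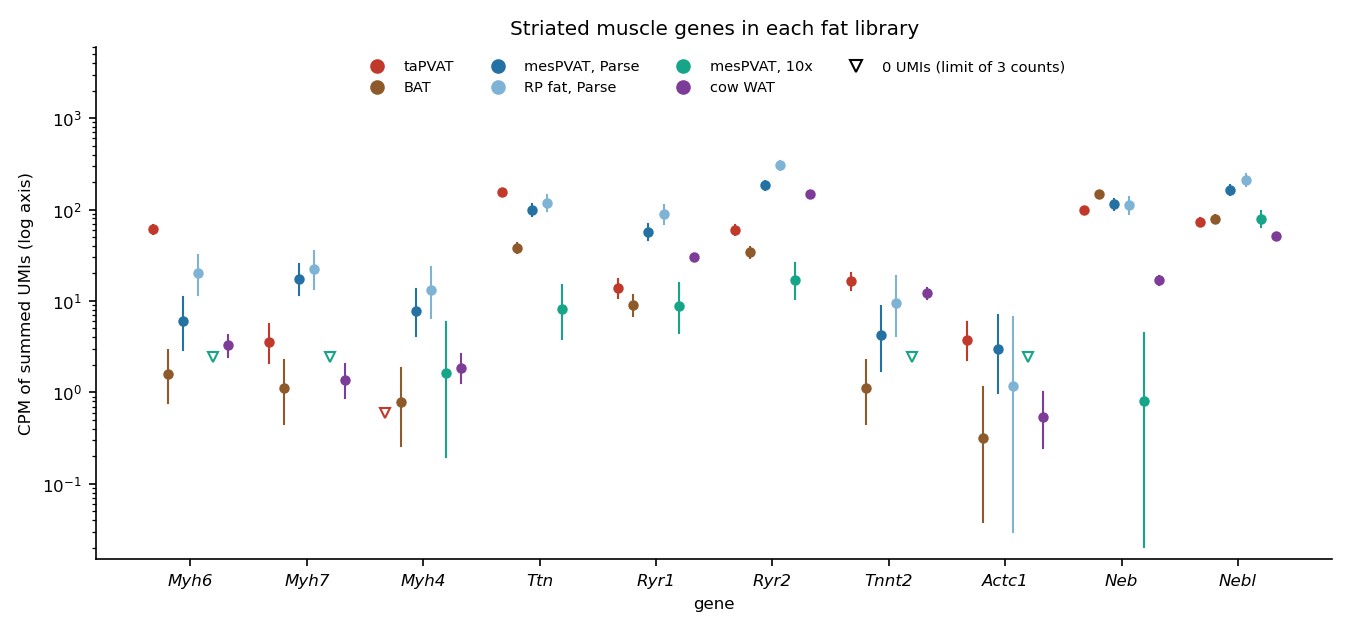
Level of the 10 genes (x axis) in each of the 6 libraries, as CPM of UMIs summed over nuclei (y axis, log scale), with 95% Poisson intervals as bars and open triangles for the limit of 3 counts for a gene with 0 UMIs. Myh6 stood at 60.6 CPM in taPVAT and at 1.58 CPM in BAT, while Neb lay between 98.8 and 147 CPM in the 4 rat Parse libraries.

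Myh6, the alpha myosin heavy chain (ENSRNOG00000025757; GRCr8 chr15:32388102-32413663), had 309 UMIs in taPVAT, 10 in BAT, 10 in mesPVAT (Parse), 17 in RP fat, 0 in mesPVAT (10x) and 55 in cow WAT. As levels these were 60.6 CPM (95% Poisson interval 54.0 to 67.7), 1.58 (0.759 to 2.91), 6.04 (2.89 to 11.1), 20.1 (11.7 to 32.2), at most 2.42 (3 counts, the limit used for a count of 0) and 3.27 (2.46 to 4.25) CPM. taPVAT was the highest and its interval did not meet that of any other library, RP fat came next, and the intervals of BAT, mesPVAT (Parse) and cow WAT met those of at least 1 neighbour. The ratio of taPVAT to BAT was 38.3 (95% interval 20.5 to 80.6), and that to mesPVAT (Parse) was 10.0 (5.39 to 21.1). In the 2 sublibraries, into which the nuclei were divided after barcoding, the ratio to BAT was 20.7 (10.2 to 48.8) and 110 (29.9 to 913), the latter on 2 BAT UMIs.

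BAT was the deeper of the pair, and the order stayed at equal depth. At least 1 Myh6 UMI was found in 74 of 2708 taPVAT nuclei (2.73%) and in 10 of 2699 BAT nuclei (0.371%). After thinning each nucleus to 200 UMIs, 17 of 2708 taPVAT nuclei (0.628%), 3 of 2699 BAT nuclei (0.111%), 4 of 2552 mesPVAT (Parse) nuclei (0.157%), 6 of 1503 RP fat nuclei (0.399%), 0 of 2099 nuclei of the 10x library and 1 of 2297 cow nuclei (0.0435%) were positive. The exact binomial intervals of taPVAT (0.366 to 1.00%) and RP fat (0.147 to 0.867%) overlapped, so the share of positive nuclei was not shown to differ between them at this depth. In BAT, mesPVAT (Parse) and RP fat no nucleus held more than 1 Myh6 UMI, and the highest in cow WAT was 3, whereas the highest in taPVAT was 68.

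In taPVAT 22.0% of the Myh6 UMIs were in 1 nucleus and 55.7% in 5. The 11 taPVAT nuclei with 5 or more Myh6 UMIs, a limit set after the values were seen, made up 0.406% of the nuclei (exact binomial interval 0.203 to 0.726%) and held 224 of the 309 UMIs (72.5%). Without them Myh6 was at 16.7 CPM, from 85 UMIs, and the ratio to BAT was 10.6 (5.48 to 22.8). The strong nuclei therefore carried most of the level, and the remaining nuclei still lay above BAT. In the remaining nuclei the level was 11.3 CPM in the brown adipocyte clusters (22 UMIs), 23.9 in the endothelial clusters (26 UMIs), 28.2 in the immune clusters (14 UMIs), 31.5 in the pericyte and smooth muscle cluster (10 UMIs), 4.22 in the stromal clusters (2 UMIs) and 9.61 in unnamed clusters (5 UMIs). Low counts of Myh6 were thus found in every class, most of which are not known to express it, and their source was not tested. Of the 74 taPVAT nuclei with Myh6, 50 held a single UMI, which is not taken as expression, and 11 held 5 or more.

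The 11 nuclei held other genes of the heart beside Myh6. They carried 497 of the 785 Ttn UMIs of the library (63.3%), 48 of the 84 Tnnt2 UMIs (57.1%), 14 of the 19 Actc1 UMIs (73.7%) and 90 of the 305 Ryr2 UMIs (29.5%), but 5 of the 504 Neb UMIs (0.992%), 8 of the 370 Nebl UMIs (2.16%), 1 of the 71 Ryr1 UMIs and 0 of Myh4. Ttn was found in 10 of them, Tnnt2 in 9, Actc1 in 8 and Ryr2 in 7, whereas Ttn was found in 5.13%, Tnnt2 in 0.873%, Actc1 in 0.114% and Ryr2 in 5.66% of the 2634 nuclei without Myh6. Mybpc3, the cardiac myosin binding protein C, was found in 7, Tnni3, cardiac troponin I, in 6, and Kcnj3, a subunit of the atrial acetylcholine-gated potassium channel, in 5. Myl7, the atrial myosin light chain, was found in 5 and Tbx20, a cardiac transcription factor, in 5. The natriuretic peptide genes Nppa and Nppb and the ventricular light chain Myl3 had 0 UMIs in these nuclei, the other ventricular light chain, Myl2, had 2 UMIs in 2 of them, Acta1 had 0 and Ckm, the muscle creatine kinase, 2 UMIs in 1 nucleus.

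The strongest nucleus, with 5212 UMIs in all, held 68 Myh6, 194 Ttn, 54 Ryr2, 23 Tnnt2, 5 Myh7, 1 Actc1, 1 Neb and 3 Nebl UMIs, together 6.70% of its UMIs, beside 14 of Kcnj3, 20 of Trdn and 0 of Myh11. A nucleus of 592 UMIs held 30 Myh6, 61 Ttn, 6 Tnnt2, 3 Ryr2 and 2 Actc1 UMIs, or 17.2% of its UMIs. Another nucleus, of 6588 UMIs, held 6 Myh6, 22 Ttn and 6 Tnnt2 UMIs, 0.516% of its UMIs, beside 21 of the adipocyte gene Plin1. The 11 nuclei thus ranged from those in which the muscle genes were a large part of the RNA to those in which they were a small part beside other cell types' genes. The brown fat gene Ucp1 was found in 9 of the 11, against 52.4% of the other nuclei, Plin1 in 4 (60.5% of the others), and Myh11, the smooth muscle heavy chain, in 3 (15.3%).

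By total UMIs the 11 nuclei were between 395 and 6588 with a median of 912. Of the 8 within the limits of the study for nuclei, 2 each fell into brown adipocyte, endothelial, pericyte and smooth muscle, and stromal clusters, and the other 3 had over 3% mitochondrial UMIs, so that they did not form a cluster of their own. Of the 11, 9 were in 1 of the 3 first-round barcoding wells, 1 in each of the other two, and they came from both sublibraries (3 and 8). The nuclei are few, and 1 UMI in them equals a level of 44.8 CPM. All 9 genes tested were 2-fold or more higher in them than in the other nuclei, where 15.1% of 18731 genes were higher and 2.82% lower, but Ryr1 was so counted on 1 UMI and Neb on 5. Myh6 chose these nuclei, so its own difference is set by the choice.

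**Figure D2:**
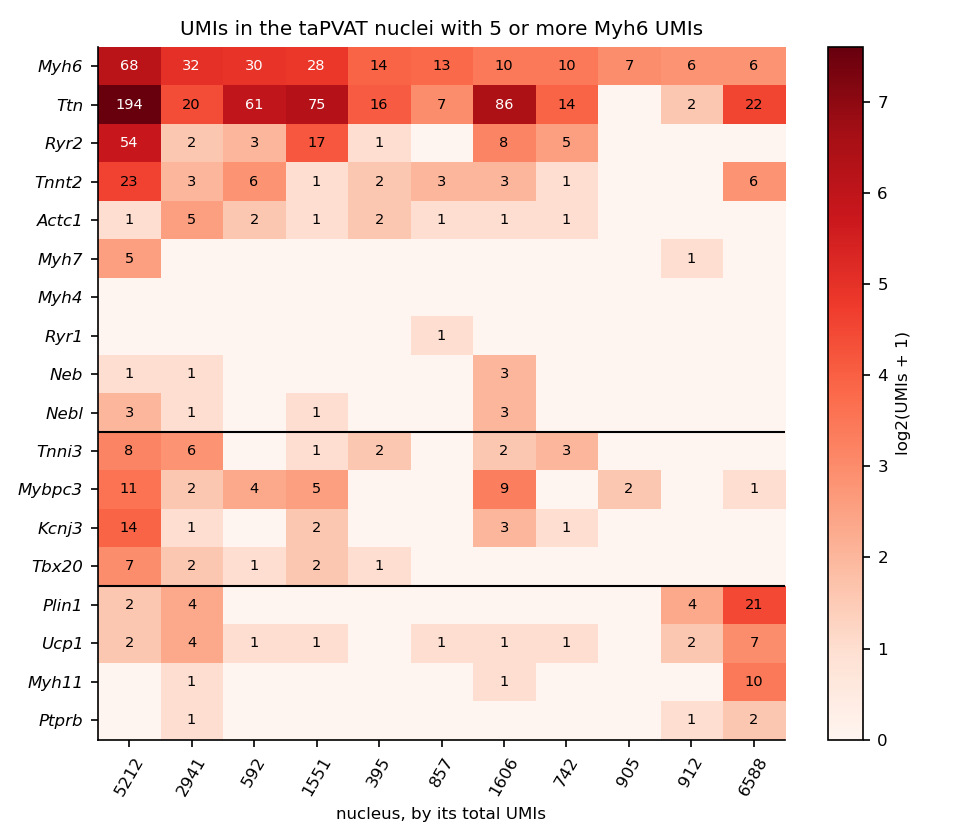
UMIs of the 10 genes (upper rows), of 4 other heart genes (middle) and of 4 markers of fat, smooth muscle and endothelium (lower rows) in each of the 11 taPVAT nuclei with 5 or more Myh6 UMIs, 1 nucleus per column with its total UMIs below it; numbers are UMIs, blank is 0, and colour is log2(UMIs + 1). Ttn was the highest gene of the 10 in 7 of the nuclei and reached 194 UMIs in the nucleus of 5212 UMIs, while Neb and Nebl stayed at 3 or fewer in every one.

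The barcoding wells split each rat Parse library from the first step of labelling on, after nuclei had been isolated. Whether the wells of a library held the same suspension of nuclei is not stated, so they were not taken as repeats of the tissue. Myh6 was at 23.1, 35.0 and 116 CPM in the 3 taPVAT wells and at 1.36, 2.37 and 0.633 CPM in the 3 BAT wells. Every taPVAT well lay above every BAT well, also for Myh7, Tnnt2 and Actc1, and below for Neb. Thus 4 of the 9 genes tested were fully above and 1 fully below, against 11.7% and 5.06% of all 23157 genes. For Myh7, Tnnt2 and Actc1 the intervals of the lowest taPVAT well and the highest BAT well overlapped. The lowest taPVAT well held 2 UMIs of Myh7 and 1 of Actc1, and Myh6 was among the values that chose the genes. Within taPVAT, 1 well held most of the Myh6 UMIs, and without it the ratio to BAT was 19.0 (9.92 to 40.9).

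**Figure D3:**
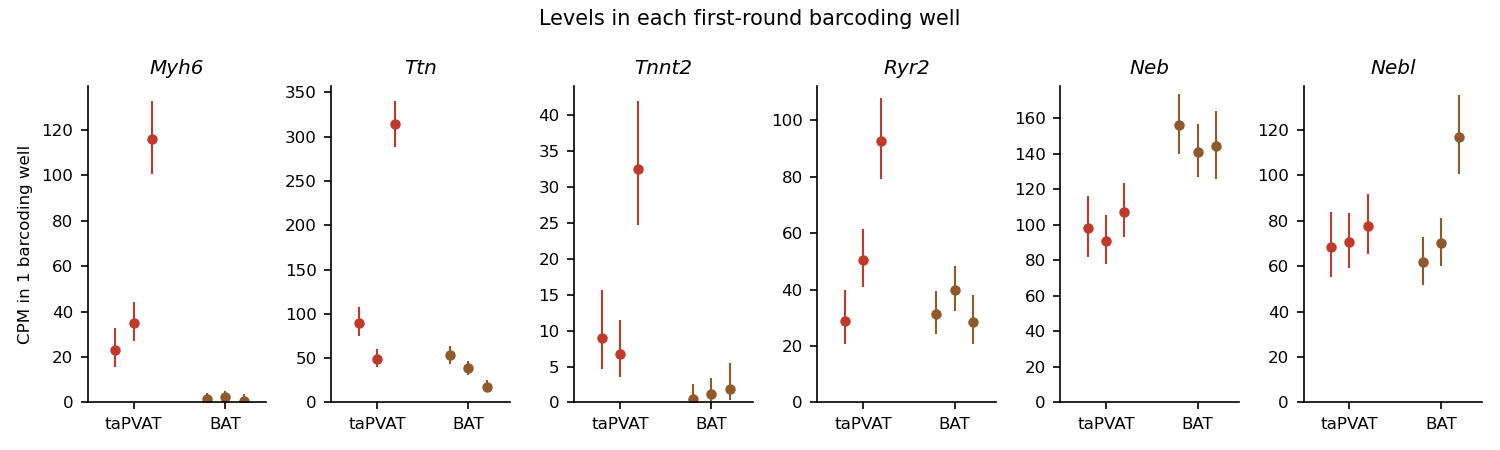
CPM of 6 of the genes in each first-round barcoding well (1 point per well, 3 per library, 95% Poisson intervals; linear y axes that differ between panels and start at 0), for taPVAT and BAT. The third taPVAT well was the highest for Myh6 (116 CPM), Ttn (314), Tnnt2 (32.5) and Ryr2 (92.7), whereas Neb was lower in each taPVAT well than in each BAT well.

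Myh7, the beta heavy chain of slow fibres (chr15:32416525-32439851), lies 2861 bases from Myh6 and is close to it in sequence, so reads could have been split between the pair and their separate levels are uncertain. Myh7 had 18 UMIs in taPVAT (3.53 CPM, 2.09 to 5.58), 7 in BAT (1.11, 0.445 to 2.28), 29 in mesPVAT (Parse; 17.5, 11.7 to 25.1), 19 in RP fat (22.5, 13.5 to 35.1), 0 in the 10x library (at most 2.42) and 23 in cow WAT (1.37, 0.866 to 2.05). Its order was thus the reverse of that of Myh6 between taPVAT and mesPVAT (Parse), with a ratio of 0.202. The ratio to BAT was 3.19 (1.27 to 9.02), and 5 of the 18 taPVAT UMIs were in the nucleus that was also highest for Myh6. Myh4, the heavy chain of fast fibres, had 0 UMIs in taPVAT, 5 in BAT, 13 in mesPVAT (Parse), 11 in RP fat, 2 in the 10x library and 31 in cow WAT, all with at most 2 in a nucleus. A count of 0 in taPVAT was given a limit of 0.588 CPM (3 counts), which is 0.743 times the value of BAT and 0.0750 times that of mesPVAT (Parse). These ratios leave out the counting error of the other library, and BAT had 5 UMIs, so a difference from BAT was not shown.

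Tnnt2, cardiac troponin T (chr13:49819123-49837125), followed Myh6. It had 84 UMIs in taPVAT (16.5 CPM, 13.1 to 20.4), 7 in BAT (1.11, 0.445 to 2.28), 7 in mesPVAT (Parse; 4.23, 1.70 to 8.71), 8 in RP fat (9.46, 4.09 to 18.6), 0 in the 10x library and 205 in cow WAT (12.2, 10.6 to 14.0). The ratio of taPVAT to BAT was 14.9 (6.91 to 38.1), the second after Myh6, and 6.40 (2.81 to 17.04) without the 11 nuclei. Over all nuclei the intervals of taPVAT, RP fat and cow WAT overlapped. The 138 cow nuclei with Tnnt2 were deep, with a median of 16527 UMIs against 3363 in the cow nuclei without it. In clustered cow nuclei, all within the study's limits, the stromal clusters held 44 Tnnt2 UMIs, 65.7% of those in clustered nuclei. Most of the 205 cow UMIs thus lay in nuclei outside these limits, and the overlap with taPVAT was not tested without such nuclei. Actc1, cardiac alpha actin (chr3:121266291-121271827), is the shortest of the genes and had 19 UMIs in taPVAT, 2 in BAT, 5 in mesPVAT (Parse), 1 in RP fat, 0 in the 10x library and 9 in cow WAT. Its ratio of taPVAT to BAT was 11.8 (2.84 to 104), and without the 11 nuclei 5 UMIs remained and the ratio was 3.11 (0.509 to 32.7), which is not a difference at this depth.

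Titin and Ryr2 were found in taPVAT both in the strong nuclei and outside them, whereas the strong nuclei held 1 of the 71 Ryr1 UMIs. Ttn (ENSRNOG00000069271; chr3:82059648-82332130) had 785 UMIs in taPVAT (154 CPM, 143 to 165), 242 in BAT (38.3, 33.6 to 43.4), 164 in mesPVAT (Parse; 99.0, 84.4 to 115), 100 in RP fat (118, 96.3 to 144) and 10 in the 10x library (8.08, 3.87 to 14.9). taPVAT stood highest, the intervals of RP fat and mesPVAT (Parse) overlapped, and BAT was the lowest of the rat Parse libraries. The ratio of taPVAT to BAT was 4.02 (3.47 to 4.66), with 1.48 (1.24 to 1.76) without the 11 nuclei and 1.72 (1.42 to 2.07) without the 1 taPVAT well that held the most Ttn. Against mesPVAT (Parse) it was 1.55 (1.31 to 1.85), and it turned below 1 when the 5 nuclei with the most Ttn were left out of each library.

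High Ttn marked different nuclei in taPVAT and BAT. Of the 16 taPVAT nuclei with 5 or more Ttn UMIs, 15 held Myh6 and 12 held Tnnt2, and 4 held Myh11. Of the 8 such BAT nuclei, 0 held Myh6, 0 held Tnnt2 and 8 held Myh11, which was in 15.9% of the other BAT nuclei, although these 8 were deep, with a median of 9236.5 UMIs. In BAT 129 Ttn UMIs (68.3% of those in clustered nuclei) were in 1 cluster of 80 nuclei that was led by the smooth muscle genes Myh11 and Acta2. Ttn was at 465 CPM there against 10.8 in the rest, and was found in 12 of its nuclei. The 2 highest nuclei held 56 and 31 of these UMIs, so the level of the cluster rests mostly on them. At a lower clustering resolution (0.5) the nuclei of this cluster no longer fell into the pericyte and smooth muscle class, which then held 2 Ttn UMIs.

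Ryr2, the cardiac calcium release channel (chr17:63081527-63667141), had 305 UMIs in taPVAT (59.8 CPM, 53.3 to 66.9), 215 in BAT (34.0, 29.6 to 38.9), 304 in mesPVAT (Parse; 183, 163 to 205), 257 in RP fat (304, 268 to 344), 21 in the 10x library (16.97, 10.5 to 25.9) and 2474 in cow WAT (147, 141 to 153). The intervals of the 4 rat Parse libraries did not meet, with RP fat the highest and BAT the lowest. The ratio of taPVAT to BAT was 1.76 (1.47 to 2.10). It was 3.07 (2.36 to 4.02) in 1 sublibrary and 0.951 (0.727 to 1.24) in the other, where the interval includes 1. Without the 11 nuclei with 5 or more Myh6 UMIs it was 1.24 (1.03 to 1.51). Without the taPVAT well that held the most Ryr2 it was 1.22 (0.981 to 1.52), with an interval that includes 1. In the BAT smooth muscle cluster of 80 nuclei Ryr2 was at 307 CPM, against 19.8 in the rest, and was found in 25 nuclei.

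In cow WAT 1044 of the Ryr2 UMIs (61.8% of those in clustered nuclei) were in the pericyte and smooth muscle clusters, at 793 CPM against 92.2 in the rest, and 197 of their 327 nuclei (60.2%) held Ryr2 against 23.5% of the rest. Within them a cluster of 45 nuclei led by ACTA2, DES and MYH11 held 513 UMIs, at 2535 CPM, with Ryr2 in 42 of the 45. In the adipocyte cluster the level was 44.5 CPM. Ryr1, the skeletal muscle channel (chr1:93420078-93551305), was spread thinly, at 13.9 CPM in taPVAT (71 UMIs), 9.02 in BAT (57), 57.3 in mesPVAT (Parse; 95), 88.7 in RP fat (75), 8.89 in the 10x library (11) and 30.2 in cow WAT (508), with no more than 5 UMIs in any rat nucleus and 13 in the highest cow nucleus. Its ratio of taPVAT to BAT was 1.54 (1.07 to 2.23). Its level in the immune clusters lay above that in the rest in cow WAT (85 UMIs, 65.9 CPM, against 24.1), in taPVAT (21 UMIs, 42.3 CPM, 26.2 to 64.7, against 10.3) and in BAT (10 UMIs, 44.1 CPM, 21.1 to 81.1, against 7.50).

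Neb, the gene of the skeletal thin filament protein nebulin (ENSRNOG00000006783; chr3:57022822-57220752), went the other way from Myh6. It had 504 UMIs in taPVAT (98.8 CPM, 90.4 to 108), 930 in BAT (147, 138 to 157), 189 in mesPVAT (Parse; 114, 98.4 to 132), 94 in RP fat (111, 89.9 to 136), 1 in the 10x library (0.808, 0.0205 to 4.50) and 282 in cow WAT (16.8, 14.9 to 18.8). BAT was the highest, 1.49-fold above taPVAT, the intervals of the other 3 rat Parse libraries overlapped, and the 10x library was the lowest. That library is the same labelled tissue as mesPVAT (Parse). It differed from it in kit, nuclei isolation, batch and genome build, so their counts are not like for like. Neb was spread over more nuclei than Myh6 in taPVAT, where the highest nucleus held 4.96% of the UMIs and 5 nuclei held 14.9%. At least 1 UMI was found in 184 taPVAT and 202 BAT nuclei. Those with 5 or more held 235 UMIs in taPVAT (29 nuclei, 46.6% of the UMIs) and 701 in BAT (65 nuclei, 75.4%).

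Pericyte and smooth muscle clusters held most of the Neb UMIs in both brown fats, but not in cow WAT. In BAT they held 719 UMIs (80.7% of those in clustered nuclei), at 1241 CPM (1152 to 1335) against 32.8 in the rest, with Neb in 118 of 212 nuclei (55.7%) against 3.06% of the rest. In taPVAT they held 304 UMIs (61.9%), at 934 CPM (832 to 1045) against 41.1, with Neb in 81 of 172 nuclei (47.1%) against 3.89%. In the brown adipocyte clusters it was at 6.86 CPM in BAT (13 of 761 nuclei) and 16.9 CPM in taPVAT (28 of 967). With all genes of the muscle lists left out of the clustering the shares of UMIs were 80.1% and 61.3%. Of 65 BAT nuclei with 5 or more Neb UMIs, 62 held Abcc9, the potassium channel subunit of pericytes (8.50% of the other nuclei), 51 held Notch3, 45 held Myh11 and 0 held Myh6, and of 29 such taPVAT nuclei 26 held Abcc9 and 1 held Myh6. In BAT the cluster of 132 nuclei with the most Neb, at 2312 CPM with 112 nuclei positive, was led by Tbx5, Neb itself, Abcc9, Postn and Pdgfrb. In cow WAT the pericyte and smooth muscle clusters held 22 Neb UMIs (13.6% of those in clustered nuclei), at 16.7 CPM (10.5 to 25.3). Neb was found there in 17 of 327 nuclei (5.20%) against 7.56% of the rest, so it was not raised in this class. No clusters of this class were named in the other libraries.

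Some Neb lay outside pericytes. In the immune clusters it was at 137 CPM in taPVAT (68 UMIs) and at 317 CPM in BAT, where 52 of the 72 UMIs were in 1 nucleus. In taPVAT 51 of the immune UMIs were in a cluster of 62 nuclei led by the lymphocyte genes Klri1, Klrk1 and Tbx21, at 640 CPM with 9 nuclei positive. Single immune nuclei of taPVAT held 12, 11 and 9 Neb UMIs. Those with 12 and 9 also held 9 and 16 Plin1 UMIs, and the BAT nucleus with 52 held 19 of Plin1 and 7 of Ucp1. Doublets were not removed, and whether these nuclei were mixed was not tested.

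**Figure D4:**
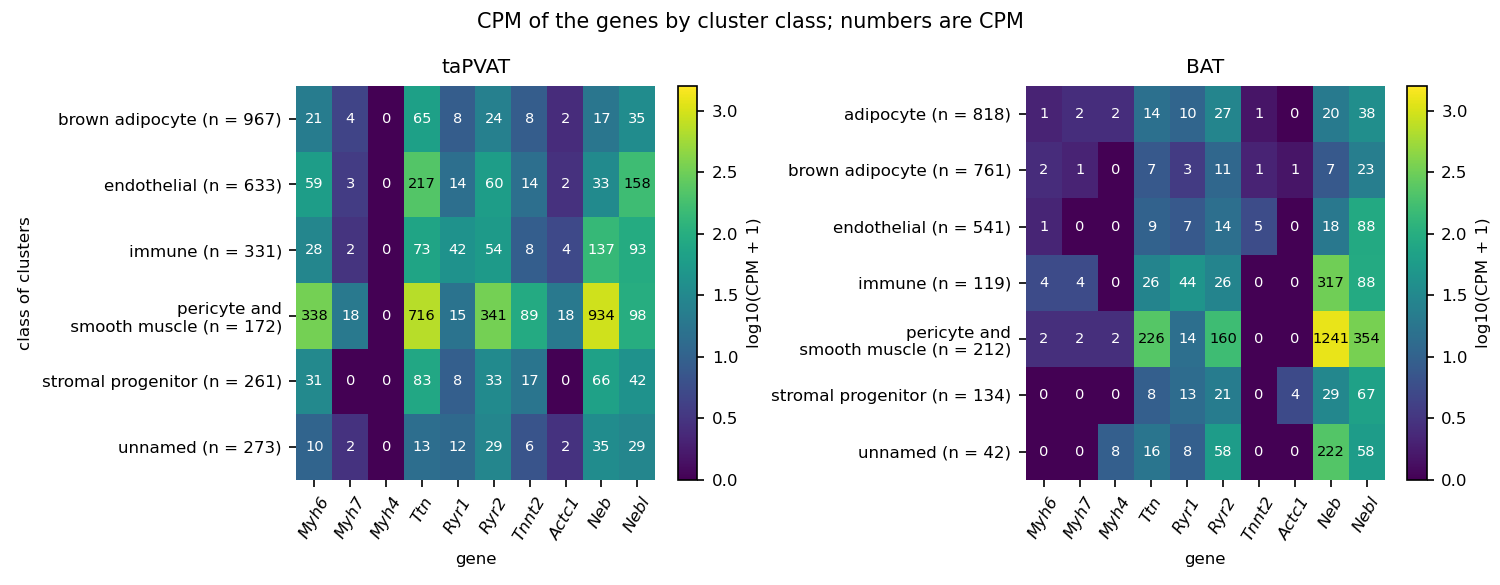
CPM of the 10 genes (columns) in the named classes of clusters (rows, with the number of nuclei) of taPVAT and BAT; colour is log10(CPM + 1) and the printed numbers are CPM. The pericyte and smooth muscle row was the highest for Neb in both libraries (934 and 1241 CPM), and in taPVAT it was also the highest for Myh6, of which 100 of its 110 UMIs were in 2 nuclei.

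Nebl, the gene of nebulette, also gives rise to the related non-muscle protein Lasp-2 (chr17:85022953-85374848). It was the most evenly found of the genes, with 370 UMIs in taPVAT (72.5 CPM, 65.3 to 80.3), 499 in BAT (79.0, 72.2 to 86.2), 271 in mesPVAT (Parse; 164, 145 to 184), 178 in RP fat (211, 181 to 244), 98 in the 10x library (79.2, 64.3 to 96.5) and 875 in cow WAT (52.0, 48.6 to 55.6). The intervals of taPVAT, BAT and the 10x library overlapped, and RP fat and mesPVAT (Parse) were above them. The ratio of taPVAT to BAT was 0.919 (0.801 to 1.05).

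Endothelial clusters had the highest level of Nebl among the classes of cow WAT, of the 10x library and of taPVAT. In cow WAT they held 439 UMIs (69.9%), at 207 CPM against 30.6 in the rest, with Nebl in 162 of 478 nuclei (33.9%) against 7.46%. In the 10x library they held 59 UMIs (61.5%), at 390 CPM against 36.4, with Nebl in 43 of 558 nuclei (7.71%) against 0.721%, and 10 UMIs lay in 2679 adipocyte nuclei. In taPVAT the endothelial clusters held 173 UMIs (48.9%), at 158 CPM against 47.9. In RP fat they were at 248 CPM (162 to 364), against 208 in the rest. In mesPVAT (Parse) the endothelial clusters, at 133 CPM, were not above the rest, at 168. This was unlike the 10x library of the same labelled tissue, which differed in kit, nuclei isolation, batch and genome build. In BAT the highest class was pericyte and smooth muscle, at 354 CPM against 87.7 in the endothelial clusters. The pericyte and smooth muscle value was 164 CPM when the muscle list genes were left out of the clustering. Of the 17 BAT nuclei with 5 or more Nebl UMIs, 17 held Ptprb (25.7% of the other nuclei) and 14 held Pecam1 (22.0%), both endothelial. Myh11 was in 9 (15.9%), Plin1 in 10 (69.2%) and Ucp1 in 7 (62.9%). These nuclei were deep, with a median of 5077 UMIs.

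The level of the genes rose with the length of the gene, more closely in the Parse libraries labelled mesPVAT and RP fat than in taPVAT. Spearman's rho between CPM and RefSeq span was 0.988 in RP fat, 0.952 in mesPVAT (Parse), 0.869 in BAT, 0.807 in the 10x library and 0.673 in taPVAT, each over the 10 genes, which share a library and are not replicates. Over all genes with a span and at least 10 UMIs rho was 0.723 in RP fat (11196 genes) and 0.643 in mesPVAT (Parse; 13295). It was 0.393 in BAT (13621), 0.409 in taPVAT (13642) and 0.334 in the 10x library (9449), so it was above 0 in each rat library. The 10 genes had no such limit on UMIs. Without it, rho over all genes with a span was 0.838 in RP fat, 0.797 in mesPVAT (Parse) and 0.651 in BAT. It was then 0.535 in the 10x library and 0.657 in taPVAT, the latter close to the 0.673 of the 10 genes. Per kb of span, Myh6 was the highest of the genes in taPVAT with a level of 2.37 CPM per kb, followed by Tnnt2 at 0.915, Actc1 at 0.673, Ttn at 0.565 and Neb at 0.499, and Ryr2 was the lowest with UMIs, at 0.102. The median of all genes with at least 10 UMIs there was 0.798 CPM per kb, so in taPVAT 2 of the 10 lay above it. In BAT Neb was highest at 0.744 CPM per kb and Myh4 lowest at 0.0342, against a median of 0.731 for genes with at least 10 UMIs. In mesPVAT (Parse) all 10 lay between 0.235 and 0.750 CPM per kb and in RP fat between 0.214 and 0.964.

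**Figure D5:**
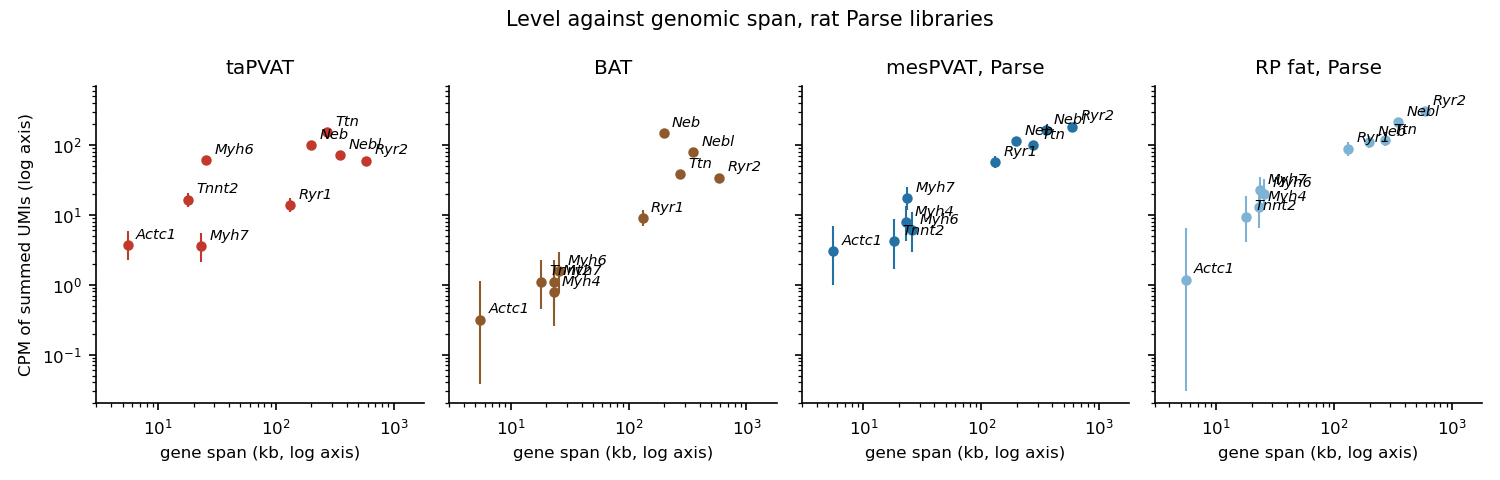
CPM (y axis, log scale, 95% Poisson intervals) against the genomic span of each gene in kb (x axis, log scale) in the 4 rat Parse libraries; genes with 0 UMIs are not drawn. In RP fat and mesPVAT the points rose along one line (rho 0.988 and 0.952), while in taPVAT Myh6 and Tnnt2 lay above genes of like span.

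Between the libraries labelled mesPVAT and RP fat the genes were near the other genes in their differences, with a median log2 ratio of -0.63 against -0.29 over all genes. Of 9 genes tested, 0 were 2-fold or more higher and 2 (Myh6 and Tnnt2) were 2-fold or more lower in mesPVAT, against 6.44% higher and 13.1% lower of 24058 genes. The ratios were 0.300 (0.123 to 0.694) for Myh6 and 0.446 (0.138 to 1.41) for Tnnt2, the latter with an interval that includes 1, and 1.03 for Neb, 0.837 for Ttn, 0.777 for Nebl, 0.646 for Ryr1 and 0.604 for Ryr2. Between taPVAT and mesPVAT (Parse), Myh6 and Tnnt2 were 2-fold or more higher in taPVAT and 5 of 10 (Myh7, Myh4, Ryr1, Ryr2 and Nebl) lower, against 8.53% and 52.1% of 24523 genes, so the 5 lower genes are near the share of all genes. Both comparisons with mesPVAT use the same library.

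Nuclei that carried several of the genes were sought as those with UMIs of 3 or more. There were 49 in taPVAT (1.81%), 16 in BAT (0.593%), 19 in mesPVAT (Parse), 15 in RP fat, 0 in the 10x library and 146 in cow WAT, with up to 8 of the genes in 1 taPVAT nucleus and 4 in a BAT nucleus. These nuclei were deeper than others in each library that had any. They had a median of 1930 UMIs against 1235 in taPVAT and of 11042.5 against 1700 in BAT. At 300 UMIs per nucleus, 12 of 2708 taPVAT nuclei carried 3 or more (0.443%, exact binomial interval 0.229 to 0.773%), and 0 of 2699 in BAT, 1 of 1764 in mesPVAT (Parse), 0 of 916 in RP fat, 0 of 956 in the 10x library and 0 of 2297 in cow WAT. The interval of taPVAT thus lay beyond the limit of 3 counts for BAT (at most 0.111%) and cow WAT (at most 0.131%), but reached below those for RP fat (at most 0.328%) and the 10x library (at most 0.314%). At 200 UMIs, which left in more nuclei of the shallow libraries, 9 of 2708 taPVAT nuclei (0.332%, 0.152 to 0.630%) and 5 of 1503 RP fat nuclei (0.333%, 0.108 to 0.775%) carried 3 or more, 1 of 2552 did in mesPVAT (Parse), and 0 did in BAT, in the 10x library (of 2099) and in cow WAT. At that depth the share was not shown to differ between RP fat and taPVAT.

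The 49 taPVAT nuclei held 46.2% of the UMIs of the 10 genes and were made up differently from the 16 of BAT. Ttn was in 39 of the 49, Ryr2 in 32, Myh6 in 29, Nebl in 25, Tnnt2 in 22, Neb in 20 and Actc1 in 10. In BAT Neb and Nebl were each in 12 of the 16, Ryr2 in 11, Ttn in 9, Myh6 in 1 and Tnnt2 in 0. In taPVAT they were spread over 12 endothelial, 10 brown adipocyte, 9 immune, 8 pericyte and smooth muscle, 2 stromal and 1 unnamed nuclei, with 7 outside the study's limits, and over all 3 wells (10, 16 and 23). Having 3 or more of the genes raises each of them by construction, so their own difference (8 of 9 tested 2-fold or more higher in taPVAT, against 16.0% higher and 4.4% lower of 18731 genes, and 4 of 6 in BAT, against 24.4% of 18960) is not a result.

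Genes outside the 10 with the largest ratio of level in these nuclei to level in the other nuclei differed between the libraries. In taPVAT, among 2029 genes with at least 20 UMIs in the carrying nuclei and detection in 3 or more of them, the first was Tnni3, at 107-fold (42.4 to 319; 24 of 30 UMIs), followed by Mybpc3 at 46.6-fold (26.2 to 85.2), Myom2, an M-band protein, at 26.6, Kcnj3 at 24.4, Ankrd1, a cardiac stress-responsive ankyrin repeat protein, at 22.8, Dsp, the desmosome protein desmoplakin, at 11.8, Trdn, a partner of the ryanodine receptor, at 8.78, Rbm20, a splicing factor of titin, at 8.55, and Cmya5 at 5.47. Of the 11 nuclei with 5 or more Myh6 UMIs, 10 were among the 49, so the 49 are not a separate set. The 11 held 22 UMIs of Tnni3, 34 of Mybpc3, 21 of Kcnj3 and 27 of Trdn. The 49 held 24, 35, 22 and 29, so these ratios rest mostly on the same few nuclei. Asking for 20 UMIs within the carrying nuclei favours genes that are high in them, so the ratios are partly set by the choice and are given as a description. In BAT the 10 genes, among 1368, were LOC103692025 at 5.19, Kcnab1 at 4.76, Col4a5 at 4.30, the smooth muscle heavy chain Myh11 at 3.93 (3.45 to 4.47), Pcdh15 at 3.73, Akap6 at 3.69, Trpm3 at 3.63, Dmd at 3.62, Csmd1 at 3.47 and Ntm at 3.34. The carrying nuclei of BAT were far deeper than the others, so a ratio of CPM compares nuclei of unlike depth.

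Of the 105 other genes in 7 lists of muscle genes, 81 had enough UMIs in taPVAT and BAT, of which 16 were 2-fold or more higher in taPVAT and 3 lower, against the 8.52% and 2.48% of all genes. In the list of cardiac sarcomere genes 8 of 10 tested genes were higher (Myl7, Myl4, Myl2, Tnni3, Tnnc1, Mybpc3, Csrp3 and Myom2), with a median log2 ratio of 1.42. Genes were tested on UMIs summed over both libraries, so a gene of low level could enter through the library where it was high. These counts are therefore given as a description. Tnni3 was 9.29-fold higher (3.27 to 36.3; 30 against 4 UMIs), Mybpc3 5.24-fold (2.83 to 10.5; 55 against 13) and Myom2 2.06-fold (1.21 to 3.58). Myl4, the atrial essential light chain, was 2.21-fold higher (1.11 to 4.60), and Myl7 had 15 UMIs in taPVAT and 0 in BAT. Of these UMIs 22 of Tnni3 and 34 of Mybpc3 were in the 11 nuclei with 5 or more Myh6 UMIs. Without those nuclei, an alternative chosen after the data were seen, 9 of 79 list genes were higher and 4 lower, against 8.33% and 2.55% of all 23131 genes, and 4 of 8 cardiac sarcomere genes were higher (Tnni3, Tnnc1, Mybpc3 and Csrp3), with a median log2 ratio of 0.84. The ratio of Tnni3 was then 2.49 (0.667 to 11.3) on 8 UMIs and that of Mybpc3 2.01 (0.960 to 4.37) on 21, both with intervals that include 1. Of the 10 genes themselves, 3 of 8 tested were still 2-fold or more higher (Myh6, Myh7 and Tnnt2) and 0 were lower. For Myh7 the ratio was then 2.13 (0.774 to 6.39) on 12 against 7 UMIs, with an interval that includes 1. Myh6 was among the values that chose the genes. The most abundant genes of the cardiac sarcomere list were not 2-fold or more higher in taPVAT. Myh7b, a heavy chain that is widely transcribed, was 1.58-fold higher in BAT (251 against 159 CPM), and Actn2, Z-disc alpha actinin, was at 78.8 CPM in taPVAT and 76.6 in BAT.

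Among genes of cardiac conduction and regulation 3 of 14 tested were higher (Gata4, Gata6 and Tbx20) and 0 lower, with Tbx20 at 3.54-fold (1.89 to 7.04). Genes of the list with more UMIs stayed under 2-fold, with Gja1, the gap junction protein connexin 43, at 66.9 CPM in taPVAT and 43.7 in BAT, Rbm20 at 21.0 and 12.2, and the transcription factor Tbx5 at 28.8 and 52.5. Of 10 skeletal sarcomere genes 3 were higher (Myh2, Tnnt3 and Myot) and 1 lower (Myh8, 4 against 18 UMIs). Tnnt3, fast skeletal troponin T, was 3.19-fold higher (2.54 to 4.02; 278 against 108 UMIs), whereas Mybpc2, fast myosin binding protein C, was at 735 CPM in taPVAT and 605 in BAT, Mybpc1 at 5.88 and 5.06 and Myh3 at 2.16 and 1.90. The difference of Myh2 rested on 8 against 3 UMIs and that of Myot on 7 against 4, and the intervals of both ratios include 1.

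In the list of skeletal metabolism and excitation 0 of 11 were higher and 1 lower (Casq1, 7 against 18 UMIs), with dystrophin (Dmd) at 161 CPM in taPVAT and 257 in BAT, the enolase Eno3 with 102 UMIs in taPVAT and 112 in BAT, Cacna1s at CPM of 6.08 and 4.27, Jph1 at 4.71 and 4.75, and Musk at 4.31 and 4.75. Of 5 myogenic regulators 0 passed 2-fold in either direction, with Mef2c at 157 and 237 CPM, Pax7 at 6.67 and 5.38 and Pax3 at 4.90 and 5.54. Of 18 Z-disc and M-band genes 2 were higher (Tcap and Xirp2), while Palld was at 317 and 305 CPM, Pdlim5 at 143 and 173, Lasp1 at 82.9 and 76.1 and Myom1 at 52.2 and 82.1. Of 13 calcium handling genes 0 were higher and 1 lower (Casq2, 54 against 138 UMIs), while Cacna1c was at 217 and 313 CPM, Atp2a2 at 199 and 216, Slc8a1 at 155 and 168 and Camk2d at 164 and 133. The cardiac sarcomere list thus had the most genes counted as higher, mostly genes of low level. The limit on summed UMIs lets such genes in through the library where they are high.

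The lists were also counted within the libraries. In the 11 taPVAT nuclei with 5 or more Myh6 UMIs 46 of 67 tested list genes were 2-fold or more higher than in the other nuclei and 2 lower, against 15.1% and 2.82% of all genes. In the 49 nuclei with 3 or more of the 10 genes it was 36 of 67 higher and 0 lower, of which cardiac sarcomere genes made up 7 of 9 tested and skeletal sarcomere genes 1 of 4. In the 16 BAT nuclei it was 25 of 63 higher and 2 lower, against 24.4% and 4.56%, with 1 of 5 cardiac sarcomere genes. A single UMI in the 11 taPVAT nuclei equals 44.8 CPM, so a gene of low level can be counted as higher there on 1 UMI. Of these 11 nuclei 10 were also among the 49, so the counts of 46 and 36 are not separate results. Between the libraries labelled mesPVAT and RP fat 2 of 82 list genes were higher and 13 lower, against 6.44% and 13.1%, and between taPVAT and mesPVAT (Parse) 7 of 83 were higher and 49 lower, against 8.53% and 52.1%, shares close to those of all genes.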

How the data were processed

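Single nuclei of 6 fat samples, 1 library per condition, were analysed. For the 5 Parse libraries the authors separated the reads of both species, used split-pipe for alignment and counting (GRCr8 for rat, ARS-UCD1.3 for cow) and deposited raw UMI counts per gene and barcode without normalization, with the transcripts, genes and reads of each barcode. For the 10x Genomics library the deposited counts are those of Cell Ranger 7.1.0, per the file headers. The study's supplement gives another rat genome build for that library than GRCr8. FastQC and Scanpy are named in the submitters' processing notes, and whether reads were counted by strand is not given in the sources used here. Total UMIs per library ranged from 845316 to 16827260.

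UMIs were summed over nuclei and scaled to 1000000 (CPM). Sums have exact Poisson intervals, shares exact binomial (Clopper-Pearson) intervals and ratios of CPM conditional binomial intervals, all at 95%. They cover counting error only. A gene with 0 UMIs was given a limit of 3 counts. Nuclei were thinned to 200 or 300 UMIs without replacement, leaving out shallower ones. Genes with at least 10 UMIs over both sides were called at 2-fold, and no test was made. CPM per kb used RefSeq spans (GRCr8), matched by symbol for 19575 of 38697 genes. Spans of this build were also used for rho in the 10x library, which was counted on another build. Each library was clustered alone within the study's limits (100 to 15000 UMIs, at most 4500 genes, at most 3% mitochondrial UMIs), without the 10 genes, on 2000 variable genes, 30 components and 15 neighbours with Leiden at resolution 1.0. A cluster took a class from at least 3 raised markers. Doublets were not called, so they remain, and the classes were rebuilt without the integration the study used. The calculations used Python 3.11.15 with scanpy 1.11.5, scipy 1.17.1, igraph 0.11.9, numpy 2.4.6, scikit-learn 1.9.0, pandas 2.3.3, matplotlib 3.10.9 and anndata 0.12.19 at seed 20, and were tested on simulated data.

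The genes, marker lists and gene lists were chosen with earlier results of these data known. Named are the 10 genes, from each of 7 muscle lists up to 4 genes with the most UMIs in taPVAT and in BAT, the 10 genes with the largest ratio in nuclei carrying 3 or more of the 10 genes (at least 20 UMIs, in at least 3 such nuclei) and class markers. A few genes that these rules pick are not reported here. List genes past 2-fold, named beside their counts, the limit of 5 UMIs per nucleus, the comparison of wells, the genes counted beside it in the strongest nuclei, and clusters left unnamed because they were led by Msln or Gpm6a (stromal) or TRPC6 (endothelial) were chosen after values were seen. Alternatives covered the nuclei summed, the scaling, single nuclei, sublibraries, depth, the number of genes required, the clustering and the thresholds of the lists.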

Additional observations from a re-analysis of the deposited data

How the results depend on the processing

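No paired analysis was possible because each condition has 1 library. The log2 ratio of Myh6 between taPVAT and BAT was 5.26, with 6.78 in sublibrary 2 alone, 3.40 without the nuclei with 5 or more Myh6 UMIs and 4.25 without the well with most of its UMIs, both left-out settings added after the data were seen; the other settings gave 4.37 to 5.81. Of 221 alternative ratios 2 changed direction, Ryr2 between taPVAT and BAT (-0.073 in sublibrary 2 alone) and Ttn between taPVAT and mesPVAT (Parse) (-0.46 without the 5 highest nuclei), and 21 others moved. For Ryr2 in sublibrary 2 the interval of the ratio includes 1. Of 452 alternative levels 99 moved. The numbers of nuclei with 3 or more of the genes (49 in taPVAT, 16 in BAT, 19 in mesPVAT Parse, 15 in RP fat, 0 in the 10x library and 146 in cow WAT) became 168, 94, 133, 71, 3 and 451 with 2 or more, and 20, 4, 4, 4, 0 and 48 with 4 or more. Thinned to 300 UMIs they became 12, 0, 1, 0, 0 and 0 and to 200 UMIs 9, 0, 1, 5, 0 and 0, settings that also left out shallower nuclei, and within the study's limits 9 in BAT and 38 in cow WAT. List genes higher in taPVAT than BAT went from 16 to 9 (at least 30 UMIs), 4 (4-fold) and 9 (without the nuclei with 5 or more Myh6 UMIs), and those lower from 3 to 1, 0 and 4. For mesPVAT against RP fat, higher went from 2 to 0 and 1, and lower from 13 to 0 at 4-fold. For taPVAT against mesPVAT, higher went from 7 to 3 at 4-fold, and lower from 49 to 32 and 27. The UMI and fold settings test fewer genes or ask for more. The share of all genes was not counted at them, so their list counts cannot be set against such a share. The share of Neb UMIs in pericyte and smooth muscle clusters stayed at 61.3 to 63.1% in taPVAT and 78.1 to 80.6% in BAT under 3 other clusterings. Depth limits the rat white fat libraries most.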
